A study of Homo sapiens with 9 samples.

Results

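Aminoacyl-tRNA synthetases attach each amino acid to its tRNA, which makes them the entry point of amino acids into translation. Most amino acids have one nuclear gene for the enzyme of the cytosol and a second nuclear gene for the enzyme that is imported into mitochondria and serves the small mitochondrial ribosome. Many of the genes for the cytosolic enzymes are classic targets of ATF4, together with amino acid transporters and enzymes of amino acid synthesis. ATF4 is a transcription factor made when amino acids run short or the endoplasmic reticulum is stressed. The 36 synthetase genes described here were taken by symbol from count tables of 21619 genes: 20 cytosolic ones, and 16 mitochondrial ones, whose symbols end in 2. All 36 were found, and all 36 passed the filter on low counts that left 13458 genes for testing. The 16 are not every mitochondrial synthetase gene.

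The tumours were xenografts of MDA-MB-231, an established triple-negative human breast cancer line, in the mammary fat pad of mice, taken after 3 weeks. The cancer cells carried a green fluorescent protein fused to ribosomal protein L10a, and an antibody to the fluorescent tag captured their polysomes from tumour lysate. The method, translating ribosome affinity purification, reads RNA on the ribosomes of tagged cells, plus any carry-over. In 5 tumours, M1, M6, M7, M10 and M15, the cancer cells were mixed 1 to 1 with mesenchymal stem cells (MSC) from human bone marrow, and in 4 tumours, A9, A11, A12 and A13, they were implanted without MSC. Each tumour came from a different mouse, and the tagged line was the same in both groups. Without input RNA beside the pulldown, RNA abundance and ribosome loading cannot be told apart. Fewer cells of a type and less RNA per cell cannot be told apart either.

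Gene counts ran from 24616792 to 65275226 per library. Markers of the line were present (VIM at 6742 to 12520 CPM, read counts scaled to library size). Of the luminal markers, CDH1 was at most 0.0202 CPM, ESR1, PGR and FOXA1 at most 0.208 and TFF1 at most 1.18. The others were present: KRT19 at 241 to 412.2 CPM, EPCAM at 8.63 to 14.7 and GATA3 at 3.73 to 9.9. The list of 8 summed to 257.8 to 428.7 CPM, mostly from KRT19. Summed over 13 fibroblast and MSC markers, M15 stood apart with 217.9 CPM, against 81.0 to 110.2 in the other tumours with MSC and 58.8 to 79.3 without. Summed over 10 mitosis markers, tumours with MSC had 839.5 to 1004 CPM and tumours without 1085 to 1346, with no overlap. Sums over endothelial markers were also higher with MSC in every tumour (130 to 161.5 CPM with, 92.6 to 111.1 without). So were those over macrophage and leukocyte (139.9 to 209.3, 96.1 to 139.4) and smooth muscle markers (21 to 61.5, 13.03 to 16.4 CPM). These sums rested mostly on ESAM, CD68 and TAGLN. In the same lists PECAM1 was lower with MSC in every tumour (3.77 to 6.04 CPM with, 6.79 to 9.62 without). ACTG2 was too (1.26 to 2.04, 2.73 to 4.58 CPM). KDR, LYZ and CD14 had lower means with MSC, and ACTA2 and CSF1R slightly higher ones. The sums thus do not show that signal of these cell types as a whole was higher. DCN, a fibroblast marker, was at 18.9 CPM in M15 and at most 0.207 elsewhere. The part of these differences in the synthetase values below was not tested.

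ATF4 binds composite elements shared with C/EBP factors, and the start regions of many cytosolic synthetase genes hold one. In RefSeq promoter windows of 250 bases before to 50 after the start site (GRCh38.p14), which were found for 16 of the 20 cytosolic and 14 of the 16 mitochondrial genes, the letters TGATGCAA occurred on either strand in 6 cytosolic genes (AARS, CARS, IARS, MARS, NARS and TARS) and in 0 mitochondrial genes. Of all 35116 such windows 0.866% hold these letters. The looser form TGATGNAAN, which also matched at all 6 of these sites, was found in 7 cytosolic genes (the same 6 and GARS), in 1 mitochondrial gene (YARS2) and in 3.61% of all windows. The 5 cytosolic genes below are those with TGATGCAA that had the smallest p for a change with MSC. They are printed 5′ to 3′ on the strand of the gene, with the 8 matching letters in capitals (TTGCATCA is TGATGCAA read from the other strand).
TARS (chr5:33440937-33440994, + strand): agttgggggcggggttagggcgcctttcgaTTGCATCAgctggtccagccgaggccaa
AARS (chr16:70289656-70289723, - strand): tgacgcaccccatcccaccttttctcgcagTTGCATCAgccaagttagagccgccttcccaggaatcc
IARS (chr9:92293673-92293740, - strand): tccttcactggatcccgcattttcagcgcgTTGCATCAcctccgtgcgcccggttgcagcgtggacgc
MARS (chr12:57488034-57488097, + strand): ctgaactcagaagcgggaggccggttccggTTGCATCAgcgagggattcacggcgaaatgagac
CARS (chr11:3057394-3057455, - strand): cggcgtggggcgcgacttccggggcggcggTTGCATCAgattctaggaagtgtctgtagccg

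With the start site counted as 0, the element spanned it in MARS (-4 to 3) and CARS (-2 to 5). It lay just before the start in IARS (-13 to -6), just after it in TARS (2 to 9) and farther upstream in AARS (-187 to -180). For comparison, 2 genes of amino acid supply outside the synthetases hold such letters too: SLC1A5, a glutamine transporter, and ASNS, asparagine synthetase, shown here with TGATGCAA and with the looser form in capitals.
SLC1A5 (chr19:46784874-46784941, - strand): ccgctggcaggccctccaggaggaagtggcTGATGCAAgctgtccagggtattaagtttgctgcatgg
ASNS (chr7:97872438-97872506, - strand): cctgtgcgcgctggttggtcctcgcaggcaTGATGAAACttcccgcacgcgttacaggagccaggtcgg

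Cytosolic synthetases were far more abundant on the tagged polysomes than mitochondrial ones. Together the 20 cytosolic genes took 0.226 to 0.258% of the gene counts of a library and the 16 mitochondrial genes 0.0318 to 0.0399%. Per kb of transcript, which allows levels of different genes to be compared, the median was 37.6 CPM per kb for the cytosolic and 6.85 for the mitochondrial genes, as means over the 9 tumours. The highest cytosolic levels were those of KARS (82.3 CPM per kb), GARS (80.6) and SARS (77.6), the lysyl, glycyl and seryl enzymes. KARS and GARS are the genes that each give both the cytosolic and the mitochondrial enzyme. The lowest cytosolic level was that of EPRS (13.8 CPM per kb), which joins the glutamyl and prolyl enzymes in 1 chain. The classes overlapped: IARS2 had 22.6 CPM per kb, above FARSB, VARS, AARS and EPRS. FARSA and FARSB encode the 2 kinds of subunit of the cytosolic phenylalanyl enzyme, and their levels were 68.7 and 21.1 CPM per kb. AARS2 (2.12 CPM per kb) and MARS2 (2.15) were lowest of all.

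**Figure D1:**
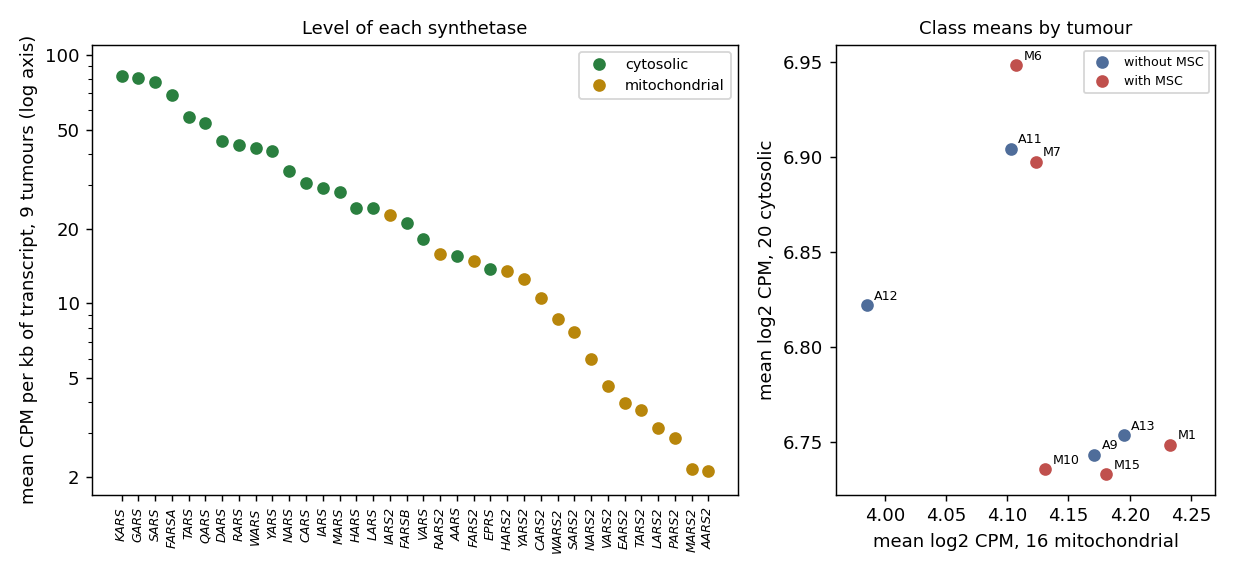
Left, mean CPM per kb of transcript over 9 tumours for each of the 36 synthetases, on a log axis, ordered by level. Right, the mean log2 CPM of the 20 cytosolic genes against that of the 16 mitochondrial genes in each tumour. Most cytosolic genes lie above most mitochondrial ones, and tumours with and without MSC are mixed in the right panel.

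No synthetase of either class passed the test for a change with MSC. In the edgeR quasi-likelihood test over all 13458 genes, with Benjamini-Hochberg adjustment and a threshold of 0.05, none of the 36 was called in either direction, against 7.78% of all genes. The smallest adjusted p was 0.0730 (TARS2). At an unadjusted p under 0.05, 3 cytosolic genes were higher (VARS, QARS and SARS), 2 were lower (TARS and FARSB), and 1 mitochondrial gene was higher (TARS2). Over all 13458 genes 1719 were higher and 1586 lower at that p. The cytosolic counts, 3 and 2 of 20, lie near these shares, and the mitochondrial counts, 1 and 0 of 16, below them. DESeq2 called 2 of the 36, TARS lower (adjusted p = 0.0419) and TARS2 higher (adjusted p = 0.0412). Over all genes DESeq2 called more than edgeR, 857 higher and 777 lower against 563 and 484. The median log2 change, with MSC minus without, was 0.01 over the cytosolic and -0.01 over the mitochondrial genes, beside 0.01 over all genes tested. Of the cytosolic genes 11 had a positive change and 9 a negative one, and of the mitochondrial genes 7 and 9, while 51.1% of all genes had a positive change.

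The precision was enough to bound most of these changes. Each of the 20 cytosolic genes had a 95% interval of its log2 change within -0.53 to 0.54, so that a change beyond 1.46-fold in either direction lay outside the interval for every one of them. Of the mitochondrial genes 13 of 16 had an interval within a factor of 1.5. The exceptions were TARS2, MARS2 and PARS2, and the widest interval, that of TARS2, reached 2.11-fold. These intervals are per gene and are not adjusted for the number of genes. Counts of the cytosolic genes ran from 1255 to 17854 per library and those of the mitochondrial genes from 102 to 4966.

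**Figure D2:**
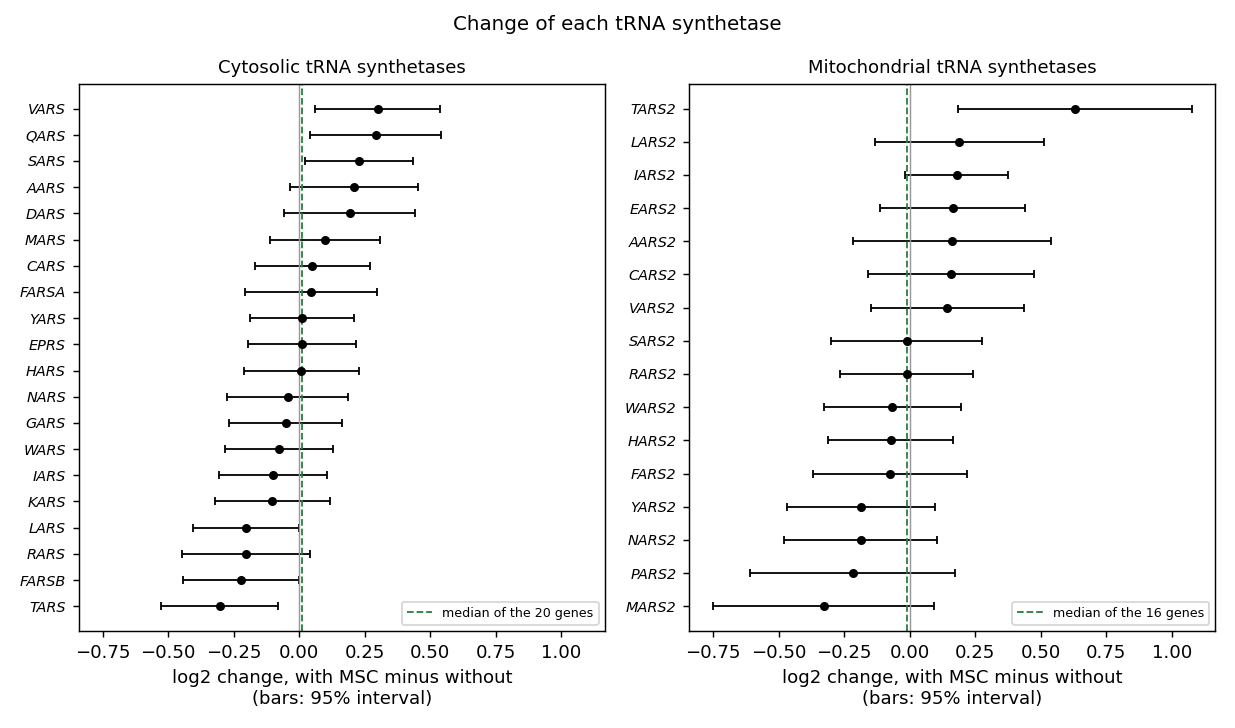
Log2 change of each synthetase, with MSC minus without, with its 95% interval, ordered by size within the cytosolic (left) and mitochondrial (right) genes. The dashed line is the median of each class, 0.01 and -0.01, and TARS2 is the point farthest from 0.

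The contrast between the classes differed between the groups by less than the spread of tumours. The mean log2 CPM of the 20 cytosolic genes was 6.81 ± 0.102 (SD, n = 5) with MSC and 6.81 ± 0.0743 (n = 4) without. For the 16 mitochondrial genes it was 4.16 ± 0.0516 with MSC (n = 5) and 4.11 ± 0.0940 without (n = 4). The difference of the 2 class means within a tumour, which a scaling factor hardly affects, was 2.52 in M1, 2.84 in M6, 2.77 in M7, 2.60 in M10 and 2.55 in M15. It was 2.57 in A9, 2.80 in A11, 2.84 in A12 and 2.56 in A13. Both groups thus spanned nearly the same range, with means of 2.66 ± 0.143 and 2.69 ± 0.147. Leaving out GARS and KARS, which serve both compartments, changed the difference between the group means from -0.035 to -0.025.

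Among the cytosolic enzymes, subdivisions by complex, fold or known regulation had medians near 0. Of the cytosolic enzymes 8 sit in the multi-tRNA synthetase complex (DARS, EPRS, IARS, KARS, LARS, MARS, QARS and RARS), and their median log2 change was -0.05, against 0.01 for the 12 outside it. The class I enzymes, whose catalytic domain has a Rossmann fold, had a median of 0.01 and the class II enzymes -0.02. EPRS, which joins the glutamyl and prolyl enzymes, was counted in class I only. For the 12 enzymes commonly listed as responsive to ATF4 the median was -0.02, with 6 positive and 6 negative changes. The 7 genes whose start region held TGATGNAAN had a median of -0.04, from -0.30 (TARS) to 0.21 (AARS), and the 9 whose window lacked it 0.01. None of these differences was tested.

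The threonyl pair had the largest changes in opposite directions. TARS, the cytosolic threonyl enzyme, was at 221, 232, 242, 198 and 203 CPM in M1, M6, M7, M10 and M15, and at 271, 247, 316 and 245 CPM in A9, A11, A12 and A13. All 5 tumours with MSC were below all 4 without, the closest being M7 and A13 (log2 change -0.30 ± 0.11 SE, edgeR adjusted p = 0.0830). TARS2, the mitochondrial threonyl enzyme, was at 13.9, 9.33, 12.3, 11.6 and 13.4 CPM in the tumours with MSC in that order, and at 7.51, 7.58, 4.22 and 11.8 CPM without. The groups overlapped, since A13 was above M6 and M10 (log2 change 0.63 ± 0.21, edgeR adjusted p = 0.0730). Both estimates leaned on A12, which was the highest tumour for TARS and the lowest for TARS2: without it they were -0.22 and 0.43 (edgeR adjusted p = 0.321 and 0.210). Without A13 both passed the threshold (adjusted p = 0.0467 and 0.00715), with log2 changes of -0.35 and 0.90. Calls over all genes moved the same way. They were 563 higher and 484 lower with all tumours, 985 and 863 without A13, and 151 and 94 without A12. In 11 further fits the log2 change was -0.31 to -0.20 for TARS and 0.39 to 0.64 for TARS2. These fits used other processing or left out M15 and A12 together, and only DESeq2 among them called either gene. The log2 ratio of TARS to TARS2 counts within a tumour was 3.92 to 4.63 with MSC and 4.38 to 6.22 without. This pair had the largest difference of ratios, -1.02, among 16 same-amino-acid pairs and was singled out for that, so the difference has no test.

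VARS and QARS leaned upwards among the cytosolic enzymes. VARS, the valyl enzyme, was at 85.6, 90.6, 79.3, 76.6 and 96.0 CPM in M1, M6, M7, M10 and M15 and at 59.4, 77.5, 61.8 and 79.6 CPM in A9, A11, A12 and A13. M7 and M10 lay within the range of the tumours without MSC (log2 change 0.30 ± 0.11, edgeR adjusted p = 0.109). After a correction for GC content and length its change was 0.02. Without A13 it passed the threshold (0.37, adjusted p = 0.0452), in a fit that called 985 genes higher against 563 with all tumours. QARS, the glutaminyl enzyme, has no separate mitochondrial counterpart, because mitochondria make this charged tRNA through an amidotransferase. It was at 154, 184, 155, 184 and 143 CPM with MSC and at 118, 169, 117 and 133 CPM without. Of the tumours without MSC, A11 was above M1, M7 and M15 (log2 change 0.29 ± 0.12, edgeR adjusted p = 0.137), and QARS passed only when A11 was left out (0.43, adjusted p = 0.0444).

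IARS2, the mitochondrial isoleucyl enzyme, was at 84.5, 88.9, 83.2, 82.3 and 85.6 CPM with MSC, and at 75.5, 71.0, 72.6 and 80.9 CPM without. All 5 tumours with MSC were above all 4 without, by a small amount (log2 change 0.18 ± 0.09, edgeR adjusted p = 0.248). TARS and IARS2 were the only 2 of the 36 whose groups did not overlap. Of all genes tested, 4.87% had every tumour with MSC lower, as TARS did, and 5.13% every one higher, as IARS2 did. MARS2, the mitochondrial methionyl enzyme, was at 6.80, 5.52, 3.93, 6.29 and 6.74 CPM with MSC and at 9.01, 6.37, 5.38 and 8.47 CPM without. The groups overlapped (log2 change -0.33 ± 0.20, edgeR adjusted p = 0.332).

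**Figure D3:**
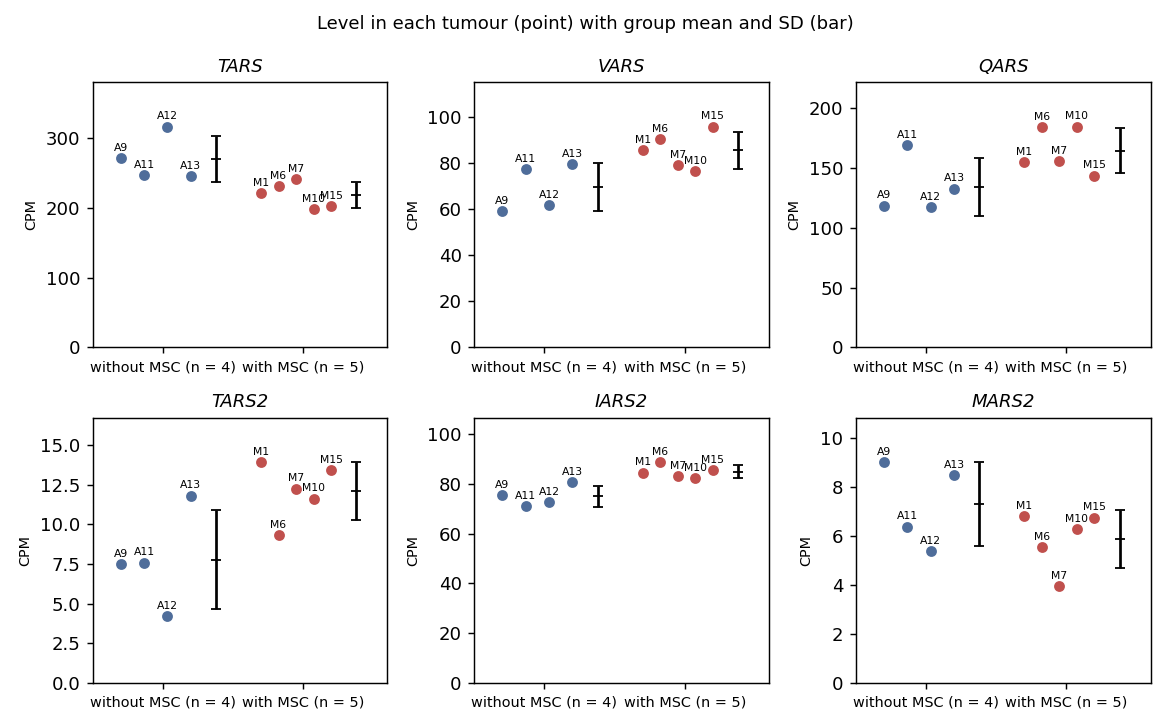
CPM of 6 synthetases in each tumour, on axes from 0, for the 3 of smallest p in each class. Points are tumours, and the bar beside each group is its mean ± SD. TARS (with MSC lower) and IARS2 (with MSC higher) are the 2 whose groups do not overlap.

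The other pairs for the same amino acid had smaller differences. Besides the threonyl pair, the largest differences of the within-tumour log2 ratio were those of MARS to MARS2, 3.86 ± 0.412 with MSC (n = 5) and 3.45 ± 0.415 without (n = 4), and of LARS to LARS2, 2.78 ± 0.250 and 3.18 ± 0.326. The leucyl genes had log2 changes of -0.20 (LARS) and 0.19 (LARS2). In all 16 pairs the groups overlapped. HARS and HARS2, the histidyl enzymes, lie head to head on chromosome 5 with promoter windows that share 184 bases. HARS was at 85.0 ± 9.81 CPM with MSC (n = 5) and 84.5 ± 5.93 without (n = 4), and HARS2 at 33.3 ± 2.26 and 34.99 ± 4.39, with log2 changes of 0.0082 and -0.07.

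WARS, the tryptophanyl enzyme, is also induced by interferon gamma. It was at 126, 127, 142, 111 and 129 CPM in M1, M6, M7, M10 and M15 and at 123, 136, 139 and 137 CPM in A9, A11, A12 and A13, with overlapping groups (log2 change -0.08 ± 0.10, edgeR adjusted p = 0.679). Of 18 tested interferon gamma response genes 16 had a negative change, with a median of -0.26. Of these, 2 passed: HLA-DRA, a chain of MHC class II (-1.02 ± 0.20, edgeR adjusted p = 0.00578), and PSME2, a proteasome activator (-0.41 ± 0.11, adjusted p = 0.0258), against 3.60% of all genes called lower. PSME2 lost its call without M1, M10, A9, A11 or A12 (adjusted p up to 0.107).

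Of 7 tested scaffold and cofactor genes of the synthetases, 1 was called higher and 1 lower, against 4.18% and 3.60% of all genes. Neither call held in every fit. EEF1E1, also called AIMP3, is a scaffold protein of the multi-tRNA synthetase complex. It was at 60.5, 71.0, 74.8, 55.5 and 50.2 CPM in M1, M6, M7, M10 and M15 and at 100.1, 80.6, 122.0 and 74.1 CPM in A9, A11, A12 and A13, so that only A13 and M7 crossed (log2 change -0.59 ± 0.14, edgeR adjusted p = 0.0177). AIMP2, a second scaffold protein, went the other way, at 29.99, 25.6, 27.7, 24.3 and 24.9 CPM with MSC and 19.7, 18.8, 13.6 and 24.2 CPM without, with no overlap (0.47 ± 0.14, adjusted p = 0.0492). AIMP1, the third, had a change of -0.06 ± 0.10, and XPOT, the exporter of tRNA from the nucleus, -0.04 ± 0.10. The call of EEF1E1 was lost without A9 or A12 (adjusted p up to 0.0915) and without M15 and A12 together (-0.38, adjusted p = 0.137). That of AIMP2 was kept by only 1 of the 9 fits that left out a tumour, the one without A13, and was lost with library size only, robust=FALSE, thinning and limma-voom.

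Genes that act with the synthetases elsewhere in translation were counted against the same shares of all genes, 4.18% called higher and 3.60% called lower. Of 24 genes listed as mitochondrial aminoacylation and translation factors 1 fell and 0 rose, with a median of -0.09. The 1 was TRNT1, which adds the CCA end to tRNAs of both compartments (-0.45 ± 0.14, edgeR adjusted p = 0.0466). Of 33 tRNA modification and processing genes 1 fell, NSUN2, a tRNA methyltransferase (-0.42 ± 0.13, adjusted p = 0.0454), and 0 rose, with a median of -0.12. Both counts lie near the share of all genes called lower. The count for the mitochondrial factors was 3 with DESeq2 and at a threshold of 0.10. It was 2 with the 5 CPM filter, with thinning and without A13, the added genes being LRPPRC and C12orf65. With library size only, limma-voom or the GC and length correction it was 0. At an unadjusted p under 0.05, 6 of the 24 were lower and 0 higher, beside 1586 and 1719 of all 13458 genes. TRNT1 and NSUN2 each lost the call in 8 of the 9 fits that left out a tumour, TRNT1 keeping it without M6 and NSUN2 without A13. Of 8 elongation factors EEF2 (0.43 ± 0.12, adjusted p = 0.0386) and the low-abundance EEF1A2 (1.29 ± 0.36, adjusted p = 0.0346) rose, and EEF1E1, which is in this list too, fell. EEF2 and EEF1A2 each kept the call in only 2 of the 9 fits that left out a tumour, those without M15 and without A13. After the GC and length correction both lost it, and EEF2 fell to a change of 0.22.

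Genes of the amino acid response outside the synthetases included many that rose. Of 33 tested genes of that list, which holds no synthetase, 10 rose and 0 fell, against 4.18% of all genes called higher, and 29 had a positive change, with a median of 0.31. The smallest p was that of SLC3A2, the shared heavy chain of several amino acid transporters. It was at 124.5, 123, 113, 108 and 111 CPM in M1, M6, M7, M10 and M15 and at 56.2, 64.2, 57.4 and 85.8 CPM in A9, A11, A12 and A13, with no overlap (0.81 ± 0.12, edgeR adjusted p = 0.00117). Its partner SLC7A5 (0.85 ± 0.16) and SLC1A5 (0.61 ± 0.14) rose as well, as did PPP1R15A, a phosphatase subunit that reverses the block of initiation (0.82 ± 0.18). ASNS had a change of 0.28 ± 0.13 (adjusted p = 0.197), and the RNA of ATF4 itself -0.06 ± 0.11. The 8 genes of the list with TGATGNAAN in the promoter window had a median of 0.47, with 8 positive and 3 called higher. The 18 without it had a median of 0.31, with 16 positive and 6 called higher. The 7 cytosolic synthetases with TGATGNAAN had a median of -0.04. The count of 10 was 6 with limma-voom and without M1, M7 or A11, 4 without M10, 2 without A9, 3 without A12 and 5 without M15 and A12 together, and the median stayed between 0.26 and 0.41 in all of these fits. Calls of higher genes over the whole set fell too, from 563 to 403 with limma-voom and 260, 407 and 390 without M1, M7 and A11. They were 285 without M10, 175 without A9, 151 without A12 and 201 without M15 and A12 together. SLC1A5 lost its call without A9 or A12, and PPP1R15A without A9. The difference between this list and the synthetases was not tested, and earlier results of these data on some of its genes were known when it was drawn up.

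**Figure D4:**
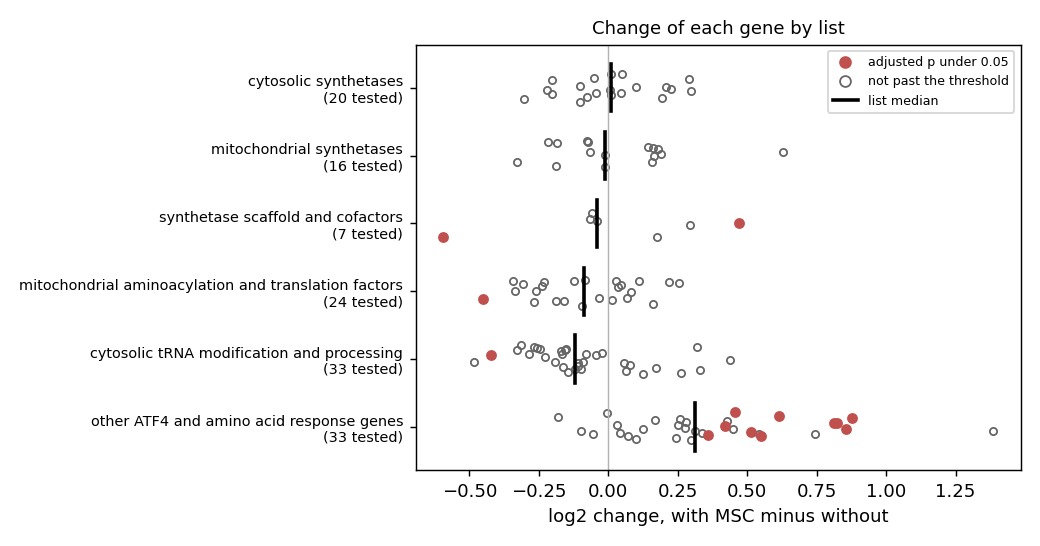
Log2 change, with MSC minus without, of each tested gene in the synthetase classes and 4 related lists. Filled points passed the adjusted p threshold of 0.05, open points did not, and the bar is the list median, 0.31 for the other amino acid response genes and within 0.12 of 0 for the remaining lists.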

How the data were processed

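Polysome-associated RNA of 9 tumours was sequenced from TruSeq libraries, per the labels' protocols. The deposited files hold raw counts per gene symbol. CASAVA 1.8.1, TopHat 1.4.0, HTSeq and the build hg19 are listed in the submitters' processing notes. Which annotation was used, whether strand counted and how mouse reads were treated is not given in the sources used here, so overlapping genes, pseudogene copies and conserved mouse RNA can affect counts. Reads assigned to no gene (10.2 to 12.1% of a library) were left out. Libraries of a group differed beyond counting noise (chi-square per degree of freedom at least 23.2), so none was the same library deposited again. No batch is named in the labels.

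The test was the quasi-likelihood test of edgeR 4.0.16, run under R 4.3.3 (filterByExpr, TMM, glmQLFit with robust=TRUE, adjustment over all genes tested). CPM used TMM-scaled library sizes, log2 CPM a prior count of 2, and ratios of counts a pseudocount of 0.5. SE was the log2 change divided by the square root of F, and intervals used the test's degrees of freedom. Transcript length (the longest coding transcript) and GC content came from GENCODE 29, matched to 95.7% of tested genes. Promoters came from RefSeq, for members whose current symbol adds a 1 through that symbol. No promoter was found for DARS, LARS, VARS, YARS, AARS2 and VARS2. The script was tested on simulated data. Members and lists were chosen with earlier results of these data known. Values in every tumour are given for the 3 members of smallest p in each class where none passed, with other genes named as at most 4 of smallest p per list. WARS, HARS, HARS2, and AIMP1, XPOT, ASNS and ATF4 among other genes, were named for their function, after values were seen.

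Alternatives were DESeq2 1.42.0, its size factors in edgeR, upper-quartile factors, library size only, no filter, 5 CPM in at least 4 libraries, limma-voom with quality weights (limma 3.58.1), robust=FALSE, a threshold of 0.10, thinning to the smallest library, a correction by splines (4 degrees of freedom) on GC content and length, and leaving out each tumour. Leaving out M15 and A12 together was added after seeing the data.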

Additional observations from a re-analysis of the deposited data

Results flagged for a closer look

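In 5 of the 72 sets of values checked (36 genes in each group), the highest or lowest tumour stood apart from the rest of its group, with a gap, as a share of the group's whole range on the log2 scale, above Dixon's 95% critical value. Chance alone flags about 1 in 20. MARS was lower in A9 (71.2 CPM) than in the other tumours without MSC (80.8 to 81.3 CPM), a gap of 0.957 of the range. WARS was also lowest in A9 (123.2 CPM, next 136.4, gap 0.850), while WARS2 was highest there (30.8 CPM, next 23.5, gap 0.872). IARS was lowest in A13 (129.3 CPM, next 143.5, gap 0.839). With MSC, HARS2 was lowest in M7 (29.4 CPM, next 33.5, gap 0.715).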

How the results depend on the processing

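No paired analysis was possible because the groups share no replicate numbers. No cytosolic or mitochondrial synthetase was called in either direction under any alternative except these. DESeq2 gave 1 cytosolic gene lower and 1 mitochondrial gene higher, and the 0.10 threshold the same counts, 1 and 1. Leaving out 1 tumour gave 0 to 1 cytosolic genes higher, 0 to 1 lower, 0 to 1 mitochondrial genes higher and 0 lower. Over all genes, 563 were higher and 484 lower. These counts were 857 and 777 with DESeq2, 956 and 888 at 0.10, 201 and 101 without M15 and A12, 151 to 985 and 94 to 863 without 1 tumour, 289 lower with limma-voom and 336 higher after the GC and length correction. Without 1 tumour the cytosolic median was -0.036 to 0.044, the mitochondrial median -0.059 to 0.076 and the difference between groups in the class contrast -0.080 to 0.014.

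Some genes, none of them called, changed sign, AARS2 and VARS2 from 0.16 and 0.14. After the GC and length correction, which moved the median of all genes to -0.054, the log2 changes were -0.029 (CARS), -0.120 (FARSA), -0.141 (YARS), -0.071 (AARS2), 0.108 (RARS2), -0.0997 (VARS2) and 0.0102 (WARS2). With limma-voom they were -0.00810 (FARSA), -0.00818 (HARS) and 0.00162 (RARS2), with thinning -0.0138 (HARS) and 0.0121 (SARS2), and without M15 and A12 -0.0771 (AARS2). Without 1 tumour the ranges were -0.0189 to 0.0643 (EPRS), -0.169 to 0.0801 (FARS2), -0.0269 to 0.164 (FARSA), -0.0996 to 0.0124 (GARS), -0.0551 to 0.0591 (HARS), -0.149 to 0.00207 (HARS2), -0.0980 to 0.0230 (NARS), -0.0683 to 0.0721 (RARS2), -0.111 to 0.0716 (SARS2), -0.112 to 0.0548 (WARS2) and -0.0223 to 0.0387 (YARS). The cause was not tested. The intervals of TARS2, MARS2 and PARS2 were the widest, so that smaller changes could be bounded for the other 33 genes than for these.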

Other observations

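The cytosolic synthetases varied together between tumours of a group, and the mitochondrial ones did not. Over the 9 tumours, with each group's mean taken out, the mean Pearson r of log2 CPM was 0.372 over the 190 pairs of cytosolic genes, of which 164 were positive. It was 0.0291 over the 120 pairs of mitochondrial genes, -0.0973 between the classes and 0.00319 over all pairs of tested genes. These are descriptions: all genes share the same 9 libraries and scaling factors, and mitochondrial genes have lower counts and so more counting noise. Median levels were 110.9 CPM for the cytosolic, 17.4 for the mitochondrial and 18.2 for all tested genes. The value over all pairs is thus no reference at the level of the cytosolic genes.

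The within-tumour difference between the class means fell into 2 sets of samples that cut across the groups: M6, M7, A11 and A12 at 2.77 to 2.84, and M1, M10, M15, A9 and A13 at 2.52 to 2.60. The cut was drawn after these values were seen. The first 4 samples had the highest cytosolic means (6.82 to 6.95) and the lowest mitochondrial means (3.99 to 4.12). The cut was drawn on the difference of these means, so both orderings follow in part from the cut itself. The split is thus not separate from the shared variation of the cytosolic genes described above. Gene counts were 24616792 to 43784829 in the first 4 samples and 30860230 to 65275226 in the other 5, and the count-weighted GC content was 49.9 to 50.6% and 49.6 to 50.6%. The part of depth in this split was not tested.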
